A study of Mus musculus with 4 samples.

Results

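Immediate early genes are transcribed within minutes of a stimulus, before any new protein has been made. The 10 genes described here are Fos, Fosb, Jun and Junb, whose proteins pair up as the AP-1 transcription factor, the zinc finger factor genes Egr1 and Egr2, the growth factor and stress induced genes Ier2 and Ier3, the antiproliferative gene Btg2 and the growth regulator gene Myc. They were chosen by symbol, and every probe set annotated to 1 of these symbols alone was read, which gave 13 of the 45037 probe sets on the array. The genes are 10 of the 18193 that have such a probe set.

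In resting muscle these genes are usually low, and contraction, injury, growth factors and cellular stress induce them through kinases that act on the serum response factor and on factors bound to cAMP response elements. Their products then switch on or off later genes.

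Total RNA came from the tibialis anterior (TA, a mostly fast-twitch muscle at the front of the shin) and the heart of mice at postnatal day 9 on the C57BL/6J background. The knockout mice lacked MG56, also called Hhatl, which sits in the membrane of the sarcoplasmic reticulum of striated muscle, and the others were wild-type. RNA of 3 knockout mice was mixed, as was that of wild-type mice (their number is not stated). Each genotype and tissue has 1 Affymetrix array of such pooled RNA, which makes 4 arrays. There is thus no replicate error and no p-value, each ratio compares pools of RNA, and the number of arrays limits the precision. The sources used here do not say how the gene was deleted or whether all cells lack it.

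The signal of Hhatl was 1078 in knockout TA and 5491 in wild-type TA, and 879.8 in knockout heart and 2110 in wild-type heart. It was 5.09-fold and 2.40-fold lower in the knockout pools, and the sources used here do not say whether its probe set reads the deleted exons. The 4 arrays shared 1 scale, with trimmed means between 496.18 and 496.68. A signal is in arbitrary units, can be compared between arrays for 1 probe set, and cannot be compared between probe sets. For the ratios, signals under 101.3, the median over all probe sets and arrays, were raised to that floor. The tissue labels matched the marker genes: all 8 skeletal muscle markers were higher in wild-type TA, and 7 of 8 cardiac markers were at least 2-fold higher in wild-type heart. The pools were not matched for sex-linked transcripts, since the Y-linked gene Uty was 2.71-fold and 2.29-fold higher in the knockout pools of TA and heart. Its part in the results below was not tested.

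Promoters of 7 of the 10 genes were taken from the RefSeq promoter table (GRCm38.p6), namely those of Fos, Fosb, Jun, Junb, Egr2, Ier3 and Btg2. Response elements known from such genes were looked for in them, because induction runs through these DNA elements. The stretches shown are the 250 bases before the annotated start, on the gene's strand. They are given for Fos, Btg2 and Ier3, whose knockout ratios on the brightest probe set were furthest from level among the 7. Egr2 is also shown, as it holds a CArG box, the site of the serum response factor. Capitals mark the searched motifs.
Fos, chr12:85473640-85473889, plus strand: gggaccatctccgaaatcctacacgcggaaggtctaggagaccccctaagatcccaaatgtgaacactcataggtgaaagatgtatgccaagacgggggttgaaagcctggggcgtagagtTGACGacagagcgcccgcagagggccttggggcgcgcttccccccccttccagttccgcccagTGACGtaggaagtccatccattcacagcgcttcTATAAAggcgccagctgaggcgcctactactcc
Egr2, chr10:67537619-67537868, plus strand: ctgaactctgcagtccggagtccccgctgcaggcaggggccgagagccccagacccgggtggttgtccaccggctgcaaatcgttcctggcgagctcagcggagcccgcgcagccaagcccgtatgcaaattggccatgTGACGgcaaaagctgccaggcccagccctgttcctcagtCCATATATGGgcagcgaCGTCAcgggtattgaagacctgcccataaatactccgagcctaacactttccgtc
Ier3, chr17:35821463-35821712, plus strand: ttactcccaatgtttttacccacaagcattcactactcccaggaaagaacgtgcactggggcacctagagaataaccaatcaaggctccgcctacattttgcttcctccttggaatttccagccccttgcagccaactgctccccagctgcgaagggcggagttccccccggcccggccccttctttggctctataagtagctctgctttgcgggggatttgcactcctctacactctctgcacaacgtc
Btg2, chr1:134079156-134079405, minus strand: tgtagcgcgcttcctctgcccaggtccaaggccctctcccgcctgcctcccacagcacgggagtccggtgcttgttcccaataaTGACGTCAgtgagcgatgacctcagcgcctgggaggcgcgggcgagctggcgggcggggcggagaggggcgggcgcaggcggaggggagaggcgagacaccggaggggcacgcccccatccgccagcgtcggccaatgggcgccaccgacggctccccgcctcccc

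Motifs were searched on both strands of the table's windows of 250 bases before to 50 bases after each start. Egr2 has 5 starts in the table, and a gene was counted once if any of its windows held the motif. The inner part of the cAMP response element, TGACG, was found in 5 of the 7 genes (Fos, Fosb, Junb, Egr2 and Btg2), against 23.0% of all 27025 genes in the table. Fos held it at -66 to -62 and at -129 to -125 from the start. The full palindrome TGACGTCA, which contains TGACG on each strand, occurred in Btg2 alone among the 7, at -166 to -159, and in 2.03% of all genes. Within these windows the CArG box occurred in Egr2 alone among the 7, as CCATATATGG at -72 to -63 in the window shown. It occurred in 1.81% of all genes. Egr1, Ier2 and Myc were not searched for the CArG box or for the other motifs, so these counts do not cover them. Bases more than 250 before the start were not searched in any gene, so a CArG box of Fos or another gene further upstream would be missed. TATAAA occurred in Fos (at -33 to -28) and Junb (at 1 to 6), and in 15.7% of all genes. The Egr site GCGGGGGCG was found in Fosb, and in 3.31% of all genes. Among the 7 genes, 0 held the AP-1 site TGANTCA, 0 the NF-kB site, 0 the C/EBP-ATF site TGATGCAA and 0 the ER stress element. Ier3 and Jun held none of these motifs in the window. A match describes the letters and does not show that a factor binds.

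The immediate early genes were on balance higher in the knockout TA pool, where Fos, Btg2 and Myc passed 1.5-fold. In these bulk samples fewer cells of a type and less RNA per cell cannot be told apart. In TA, 9 of the 10 genes reached the floor on at least 1 array. Of these, 3 passed 1.5-fold upwards in the knockout, against 4.2% of the 11528 genes measured in that comparison, and 0 were 1.5-fold lower, against 4.44%. The median log2 ratio of knockout over wild type was 0.37 for the 9 genes and -0.01 for all genes measured. Only Fos passed 2-fold, which 0.954% of all genes did. In heart, 7 genes were measured, 1 of them (Btg2) at least 1.5-fold higher, against 2.67% of 11452 genes, and 0 lower, against 4.19%. Their median log2 ratio in heart was 0.21, and that of all genes was -0.002. These genes were picked with earlier results of the same arrays known, so the counts describe them and are not independent support for a group response.

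**Figure D1:**
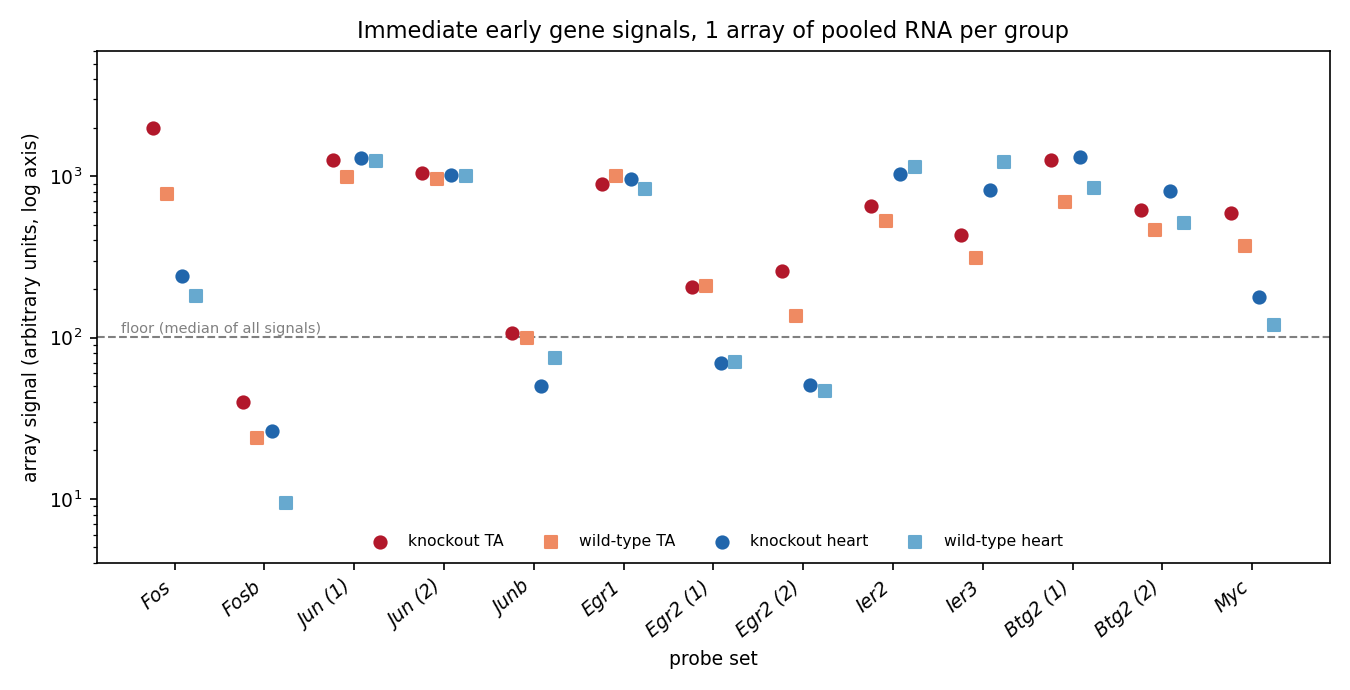
Signals of the 13 probe sets (x axis) on the 4 arrays, on a log axis in arbitrary units, with 1 point for each array of pooled RNA and the floor of 101.3 as a dashed line. Where a gene has 2 probe sets, (1) is the brighter one that stands for it. Fos and Myc lie highest in knockout TA and lowest in wild-type heart, and all Fosb points lie under the floor.

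Among the AP-1 genes, Fos differed most between the arrays. Fos encodes the leucine zipper protein that joins a Jun protein in the classical AP-1 dimer, and its transcript is among the fastest to be induced in any tissue. Its signal was 1984 in knockout TA, 771.0 in wild-type TA, 240.7 in knockout heart and 180.7 in wild-type heart. Both TA arrays thus lay well above both heart arrays, and in each tissue the knockout array was the higher one. The knockout ratio was 2.57-fold in TA (log2 1.36), the 46th highest of the 11528 genes measured. In heart it was 1.33-fold (log2 0.41), which placed 6.79% of genes above it. The difference between the log2 ratios, TA minus heart, was 0.95.

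The other AP-1 genes showed smaller differences. Fosb, a close relative of Fos, had signals of 39.6, 23.8, 26.2 and 9.4 in knockout TA, wild-type TA, knockout heart and wild-type heart. All were under the floor, so no ratio is given for it. Jun, the most common partner of Fos, was read by 2 probe sets. The brighter one gave 1268 in knockout TA, 983.5 in wild-type TA, 1294 in knockout heart and 1237 in wild-type heart. Its knockout ratios were 1.29-fold in TA and 1.05-fold in heart, and the other probe set gave 1.09-fold and 1.02-fold. Jun was nearly level over the arrays, its highest signal being 1.32 times its lowest on the brighter probe set. Junb, which encodes a Jun protein that can oppose Jun, had a signal of 106.8 in knockout TA, just under the floor of 101.3 in wild-type TA, 50.3 in knockout heart and 74.6 in wild-type heart. Only knockout TA reached the floor, the TA ratio was at least 1.05-fold, and no heart ratio is given.

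The Egr genes, which encode zinc finger factors that bind GC-rich sites, showed no single direction. Egr1, usually induced together with Fos, had signals of 892.1 in knockout TA, 1003 in wild-type TA, 963.1 in knockout heart and 833.2 in wild-type heart. It was 1.12-fold lower in the knockout TA pool (log2 -0.17) and 1.16-fold higher in the knockout heart pool (log2 0.21). Its highest signal was only 1.20 times its lowest. Egr2, which is best known for its part in myelination by Schwann cells, was above the floor in TA only, and its 2 probe sets disagreed. The brighter one gave 206.8 in knockout TA and 208.5 in wild-type TA, a log2 ratio of -0.01. The other gave 259.4 and 136.0, which is 1.91-fold higher in the knockout (log2 0.93). That gap of 0.94 between them exceeds what most genes showed: over 5173 genes with 2 measured probe sets, the TA ratios of the brightest pair differed by a median of 0.18 on the log2 scale, and by up to 0.54 in 90% of genes. A direction for Egr2 in knockout TA is therefore not given. In heart, the Egr2 signals were between 46.8 and 70.1.

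**Figure D2:**
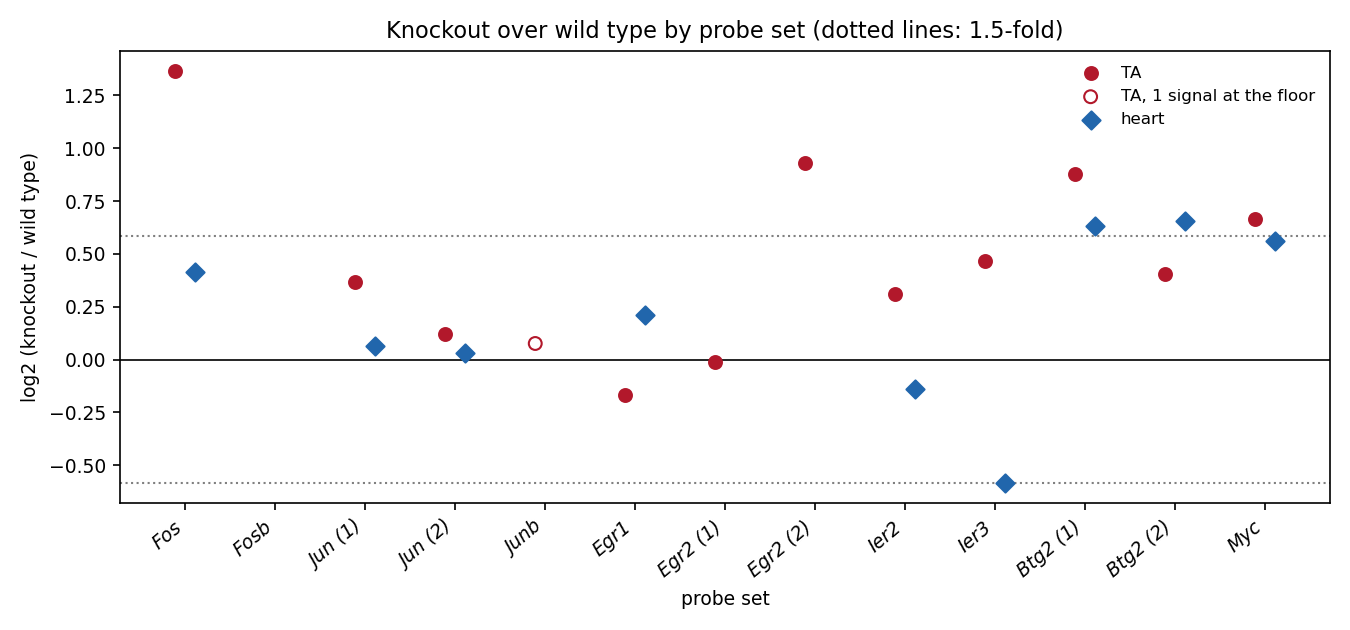
The log2 ratio of knockout over wild type (y axis) for each probe set (x axis) in TA (circles) and heart (diamonds), with dotted lines at 1.5-fold and an open circle where 1 signal was at the floor. The Egr2 probe sets differ, at 0.93 and -0.01 in TA, while both Btg2 probe sets lie above 0 in both tissues.

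The Ier genes were lower in TA than in heart. Their knockout ratios had opposite signs in the tissues, though that of Ier2 in heart was close to level. Ier2, a nuclear protein gene induced by growth factors, had signals of 657.3 in knockout TA, 530.3 in wild-type TA, 1033 in knockout heart and 1139 in wild-type heart. It was 1.24-fold higher in knockout TA and 1.10-fold lower in knockout heart. Ier3, also known as IEX-1 and linked to cell survival under stress, had signals of 433.0, 313.3, 816.5 and 1222 in the same order. It was 1.38-fold higher in knockout TA (log2 0.47). In knockout heart its log2 ratio was -0.58, just short of 1.5-fold lower, and 4.24% of genes lay further down. With quantile normalization its log2 ratio in heart was down to -0.61, past the limit. The TA minus heart difference of Ier3, 1.05, was the largest of the 7 genes measured in both tissues.

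Btg2 was higher in both knockout pools on both of its probe sets. Its protein slows the cell cycle and recruits the machinery that shortens poly(A) tails, and the gene is also a target of p53. The brighter probe set gave 1270 in knockout TA, 691.5 in wild-type TA, 1309 in knockout heart and 845.2 in wild-type heart. Both knockout arrays lay above both wild-type arrays. The ratios were 1.84-fold in TA and 1.55-fold in heart, with 1.38% and 1.91% of all genes above them. The second probe set gave 619.0, 467.1, 815.0 and 516.8 in that order, with ratios of 1.33-fold in TA and 1.58-fold in heart. On it the TA ratio was thus under 1.5-fold, and the order of the tissues' ratios was turned, with a TA minus heart difference of 0.25 on one probe set and -0.25 on the other.

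Myc, which encodes a factor that pairs with Max and drives growth and ribosome production, was likewise higher in both knockout pools. Its signal was 588.5 in knockout TA, 371.4 in wild-type TA, 177.7 in knockout heart and 120.5 in wild-type heart. The ratios were 1.58-fold in TA (log2 0.66) and 1.47-fold in heart (log2 0.56), nearly the same in both, with a difference of 0.10. In heart the signals lay close to the floor. With the floor at the 75th percentile of all signals, 471.5, the TA log2 ratio was 0.32 and Myc was no longer measured in heart.

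**Figure D3:**
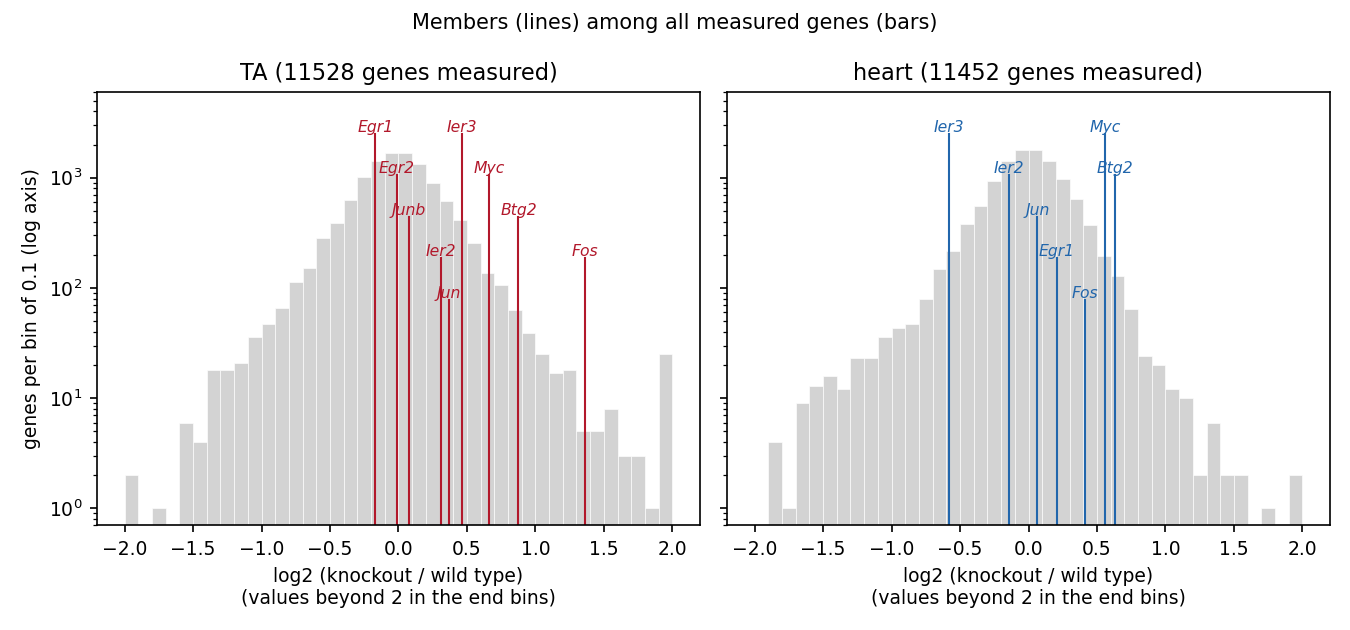
Numbers of genes (y axis, log scale) by log2 ratio of knockout over wild type (x axis) in TA and heart, with the immediate early genes drawn as lines. Fos lies far to the right in TA, at 1.36, and Ier3 lies left of 0 in heart, at -0.58.

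Set side by side, 4 of the 7 genes measured in both tissues (Fos, Jun, Btg2 and Myc) were higher in both knockout pools, though Jun in heart, at a log2 ratio of 0.07, was too close to level for a settled sign. The others differed in sign: 2 (Ier2 and Ier3) were higher in TA and lower in heart, and Egr1 was the reverse. The log2 ratios of Ier2 in heart, -0.14, and of Egr1 in TA, -0.17, have no settled sign either. Both are smaller than 0.18, the median gap between 2 probe sets of 1 gene in either tissue. Of all 10802 genes measured in both, 29.3% were higher in both. Fos and Ier3 had a log2 ratio in TA at least 1.5-fold above that in heart, where 6.44% of all genes did, and 0 had one 1.5-fold below, where 5.1% did. The median TA minus heart difference of the 7 genes was 0.30, with 6 above 0. That of all genes was 0.0002, with 5405 of 10802 above 0. With 1 array in each group this difference was not tested.

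Between the wild-type tissues the genes fell into opposite groups. Fos was 4.27-fold and Myc 3.08-fold higher in TA than in heart, and Egr2 was at least 2.06-fold higher on the brighter probe set and at least 1.34-fold on the other. Ier3 was 3.90-fold and Ier2 2.15-fold lower in TA. The remaining measured genes were nearer to level: Egr1 was 1.20-fold higher in TA, while Jun and Btg2 were 1.26-fold and 1.22-fold lower. Thus 3 of 8 genes passed 1.5-fold and also 2-fold higher in TA, where 14.5% and 7.56% of 11872 genes did, and 2 passed both lower, where 18.0% and 7.8% did. The median was -0.01 and ran from -0.31 to 0.34 over the processing alternatives, so the list had no settled direction between the tissues. This comparison uses the same wild-type arrays as the knockout ratios. Between the knockout arrays Fos was 8.24-fold and Myc 3.31-fold higher in TA, and Ier2 1.57-fold and Ier3 1.89-fold lower.

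Of a list of 33 other immediate early genes, 28 were measured in TA, and 5 of these passed 1.5-fold upwards in the knockout pool and 0 downwards, where 4.2% and 4.44% of all genes did. The median log2 ratio was 0.32, with 23 above 0, against 5616 of 11528 among all genes. The 5 were Atf3, a stress-induced partner of AP-1 proteins, at 2.94-fold (signals of 822.6 and 279.9), the small Maf factor gene Mafk at 2.13-fold (885.7 and 415.3), the clock gene Per1 at 1.84-fold, the matrix-associated growth regulator gene Ccn2 at 1.77-fold and the endothelial flow-responsive factor gene Klf2 at 1.76-fold. In heart 29 were measured, with a median of 0.24 and 25 above 0, against 5691 of 11452 among all genes. Of the 29, 3 passed 1.5-fold upwards and 0 downwards (2.67% and 4.19% of all genes). These 3 were Per1 at 1.88-fold, the phosphatase gene Dusp5 at least 1.82-fold and the orphan nuclear receptor gene Nr4a2 at 1.65-fold, or a log2 ratio of 0.28 as the median over its measured probe sets. Of the 28 measured in both tissues 20 were higher in both, as were 29.3% of all genes. Only Per1 passed 1.5-fold upwards in both, as did 34 of all 10802 genes measured in both. Raising the floor to the 75th percentile brought the TA log2 ratio of Per1 to 0.16. Atf3, Mafk, Ccn1 and Ccn2 had a TA ratio at least 1.5-fold above the heart ratio, with differences of 1.42, 0.64, 0.76 and 0.89 on the log2 scale, as did 6.44% of all genes. For Mafk that same floor gave a difference of 0.46. For Ccn1 it was 0.42 as the median over its probe sets and 0.37 without probe sets that can cross-hybridize, so neither call held under each alternative. Of the relatives of Egr1, Egr3 was 1.18-fold higher in knockout TA and the nuclear receptor gene Nr4a1, often induced with Egr1, had a ratio of 1.001.

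**Figure D4:**
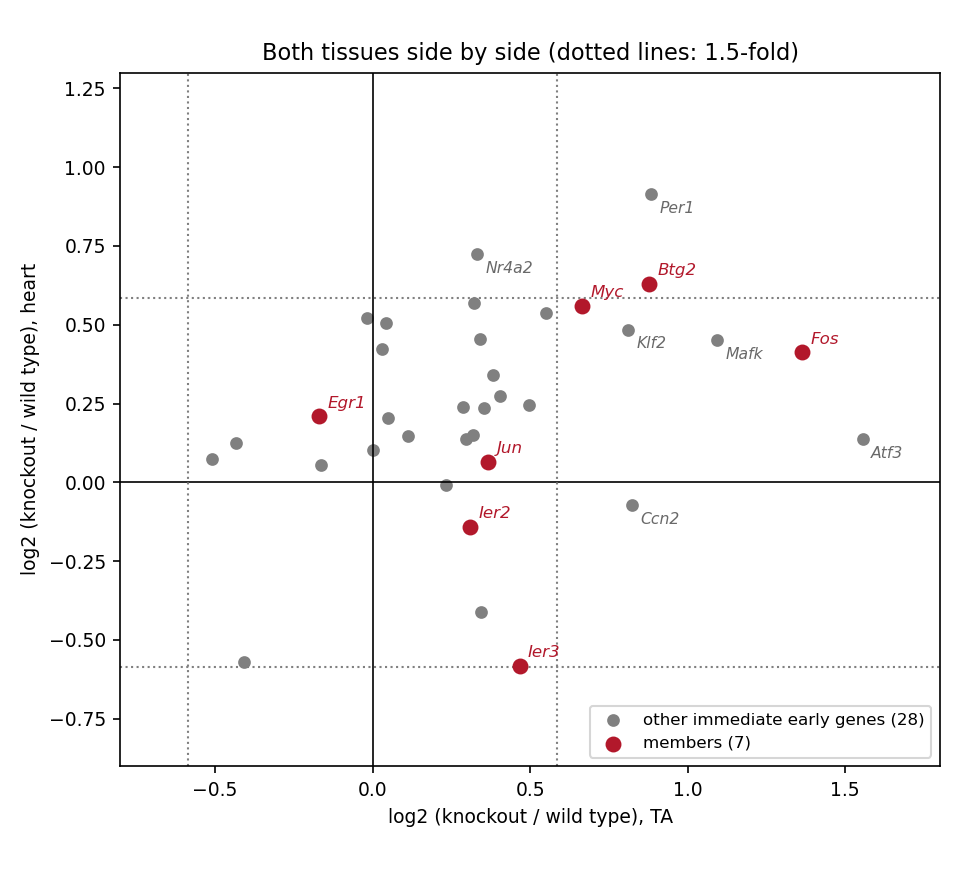
The log2 ratio of knockout over wild type in TA (x axis) against that in heart (y axis) for the 7 members (red) and 28 other immediate early genes (grey) measured in both, with dotted lines at 1.5-fold. Most points lie to the upper right, Atf3 and Fos reach furthest to the right, and Ier3 lies at the bottom.

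Of 16 measured genes for kinases and factors upstream of the immediate early genes, 0 were 1.5-fold higher in knockout TA, against 4.2% of all genes, and 2 were lower, against 4.44%. These were Mrtfa at 1.68-fold and Rps6ka5 at 1.71-fold, and the median was -0.08. Mrtfa encodes a coactivator of the serum response factor, and its signals were 490.5 and 823.1 in knockout and wild-type TA and 276.3 and 196.3 in heart, 1.41-fold higher there. Rps6ka5 encodes MSK1, a kinase that phosphorylates CREB. Its TA log2 ratio was -0.50 as the median over its probe sets and -0.35 with the floor at the 75th percentile, both short of 1.5-fold. In heart, 0 of the 16 passed 1.5-fold either way, where 2.67% of all genes were higher and 4.19% lower, and the median was 0.05.

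Partners and antagonists of the members had 0 of 15 genes 1.5-fold higher and 1 lower in TA, near the 4.2% and 4.44% of all genes, and that 1 was the Myc antagonist gene Mxd3 at 1.71-fold. In heart, 2 of 14 were higher and 1 lower, where 2.67% and 4.19% of all genes were. Mxi1 and Mxd4, both encoding Max partners that oppose Myc, were 1.76-fold and 1.71-fold higher, and Mxd3 was 3.10-fold lower there. As the median over their probe sets the heart log2 ratios were 0.27 for Mxd4 and -0.34 for Mxd3. The corepressor gene Nab2, which restrains Egr factors, had signals of 37.2 and 129.2 in knockout and wild-type TA, at least 1.28-fold lower.

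Among 18 Myc target and ribosome biogenesis genes, the median log2 ratio was 0.17 in TA, with 12 above 0, and -0.08 in heart, with 4 above 0. Of all genes measured, 5616 of 11528 were above 0 in TA and 5691 of 11452 in heart. The spermidine synthase gene Srm alone was 1.5-fold higher in TA, at 1.61-fold (1565 against 973.5), and Odc1, the gene of the first enzyme of polyamine synthesis, alone was lower in heart, at 1.57-fold. Each is 1 of 18, near the 4.2% and 4.19% of all genes that passed in those directions. The TA ratio was at least 1.5-fold above the heart ratio for Srm and the pyrimidine synthesis gene Cad, and for 6.44% of all genes. Of 7 measured AP-1 target genes 0 passed 1.5-fold in TA, where 4.2% of all genes were higher and 4.44% lower. Of 5 measured in heart 0 did, where 2.67% and 4.19% of all genes did. At such shares these counts do not set the AP-1 target genes apart. Their median in TA, 0.11, was -0.037 when the 25th percentile served as floor and -0.10 without a floor.

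Among marker lists of other cell types, the widest gap between the genotypes was that of neutrophil genes. For these sums the signals were not raised to the floor. The summed signal of 7 neutrophil genes was 1270 in knockout TA and 488.3 in wild-type TA, and 998.8 and 739.3 in heart. Of the 7, 4 were under the floor in knockout TA and 6 in wild-type TA. The gap in TA rested mostly on S100a8 (740.0 in knockout and 140.6 in wild type), then on S100a9 (196.8 and 96.8). Ngp added little in TA (128.4 and 96.5), and in heart it was under the floor (85.9 and 94.8). Ltf, Mpo, Elane and Camp were under the floor on all 4 arrays. S100a8 was 5.26-fold higher in knockout TA and 1.49-fold in knockout heart. The summed signals of 8 endothelial, 8 fibroblast and 8 macrophage genes in knockout TA were 0.947, 0.908 and 1.03 times those of wild-type TA, and 1.02, 0.954 and 0.991 times in heart. Those of 5 satellite cell and 5 smooth muscle genes were 0.815 and 0.917 times in TA and 0.873 and 0.893 times in heart. All 5 satellite cell genes were lower in knockout TA, with a median log2 ratio of -0.32 and 0 of them past 1.5-fold. The sums of 8 cardiac muscle genes (5 under the floor on each TA array) and 3 red blood cell genes (2 under it) were 0.752 and 0.802 times in TA, and 1.01 and 1.001 times in heart. The cardiac sum in TA rested mostly on Actc1, with signals of 29977 in knockout TA and 40999 in wild-type TA. The other cardiac genes measured in TA, Myh6 and Tnnt2, were 1.41-fold and 1.14-fold higher in the knockout. The part of other cells in the ratios of the immediate early genes was not tested.

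The genes whose pattern over the 4 arrays was nearest to that of Fos were Chac1, a glutathione-degrading enzyme gene, Cyb5r1 and Npnt, with root mean square distances of 0.25, 0.32 and 0.34 between centred log2 signals. Chac1 had signals of 1339, 569.4, 178.3 and 190.2 in knockout TA, wild-type TA, knockout heart and wild-type heart. It was 2.35-fold higher in knockout TA, as Fos was 2.57-fold, but had a log2 ratio of -0.09 in heart. Nearest to Btg2 were Arhgef1, Golgb1 and Palm, at distances of 0.02, 0.07 and 0.09. Arhgef1 had signals of 285.2, 153.6, 285.6 and 192.6. The search covered the 10161 genes at or above the floor on all arrays, and each distance rests on 4 arrays only.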

How the data were processed

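The values are MAS5 signal intensities, linear and with 1 for each probe set on an array, as the authors deposited them; the tool is named in the submitters' processing notes. The notes used here give no software version, scaling target, detection call or genome build. The platform's annotation table named the probe sets: 34945 had 1 gene symbol, 932 several and 9160 none, and 34741 of the first matched a RefSeq gene identifier. Older symbols were matched through RefSeq synonyms.

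A gene was represented by its probe set with the highest mean signal. It counted as measured where that probe set reached the floor (the median of all signals) on 1 or more of the arrays compared, and lower signals were raised to it, which makes the ratio a bound ("at least"). Ratios are log2 differences of the deposited signals, counted at 1.5-fold and 2-fold, computed with Python 3.11.15, numpy 2.4.6 and pandas 2.3.3. The computation was tested on simulated arrays with planted changes. With 1 array in each group no test was made. Knockout was compared with wild type within each tissue, the tissues' log2 ratios were subtracted, and wild-type TA was compared with wild-type heart. Alternatives were centring, quantile normalization, other floors and other rules for several probe sets.

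The members and gene lists were chosen with earlier results of these data known. Named are all members, genes behind counts of 5 or fewer or with the largest ratios of each list, the nearest patterns and Hhatl. Egr3, Nr4a1, S100a8 and Uty were named after their values were seen.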

Additional observations from a re-analysis of the deposited data

Results flagged for a closer look

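Each result here had a knockout ratio of opposite sign in TA and heart. With 1 array in each group the difference was not tested. Among the immediate early genes, the log2 ratio in TA minus that in heart was 1.05 for Ier3 (0.47 in TA and -0.58 in heart), 0.45 for Ier2 (0.31 and -0.14) and -0.38 for Egr1 (-0.17 and 0.21). Each of these genes has 1 probe set on the array. In the other lists, it was 0.76 for Ccn1 (0.34 and -0.41, but a difference of 0.42 as the median over probe sets), 0.89 for Ccn2 (0.82 and -0.07), 0.59 for Cad (0.52 and -0.06) and 0.83 for Srm (0.68 and -0.15). It was -1.24 for Mrtfa (-0.75 and 0.49). It was -0.69 for Nab2 (-0.35 and 0.34), a bound because the knockout TA signal was under the floor, and -2.14 without a floor. Of the genes with a pattern like that of Fos, it was 1.33 for Chac1 (1.23 and -0.09) and 0.64 for Cyb5r1 (0.64 and -0.0008). A heart ratio as close to 0 as those of Ccn2, Cad, Chac1 and Cyb5r1 has no settled sign. The same holds for Ier2 and Srm in heart and Egr1 in TA. Their log2 ratios were smaller than 0.18, the median gap between 2 probe sets of 1 gene in either tissue.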

How the results depend on the processing

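Of 261 recomputed values of single members, 259 stayed within 1.5-fold of the main value and 0 of those past 1.5-fold turned direction. The other 2 were the ratios of TA over heart in wild type with the floor at the 75th percentile, 0.71 for Fos and -1.37 for Ier3, where the higher floor itself shortens the ratio. The log2 ratio of Fos in TA ran from 1.33 to 1.37 over all settings, that of Btg2 from 0.64 to 0.88 in TA and from 0.61 to 0.64 in heart, and that of Myc from 0.32 to 0.67 in TA. Of 105 counts and medians of the members, 6 moved. In heart, 1 gene (Ier3) was 1.5-fold lower with quantile normalization over the 4 arrays and also 1 within each tissue, and 2 were higher with no floor (Btg2 and Fosb). In wild type 1 gene was 1.5-fold higher in TA with the floor at the 75th percentile, where fewer genes are measured. For the difference between the tissues, 0 genes were higher with that floor, and 1, Fosb, was lower with no floor. Among the other named genes, Rps6ka5 and Per1 in TA and the TA minus heart differences of Ccn1 and Mafk were under 1.5-fold in the settings named beside them. In TA, Arhgef1 as the median over probe sets (0.41) and Golgb1 with the floor at the 75th percentile (0.46) were under it too. The TA minus heart difference of Mxd3 was reversed to -0.37 as the median over probe sets, and the TA median of AP-1 targets was reversed to -0.037 and -0.10 with the floor at the 25th percentile or none. The cause was not tested. Counts over all genes depended on the floor: at least 1.5-fold higher in knockout TA were 484 genes, or 1247, 234 and 2445 with the floor at the 25th percentile, at the 75th or with none. No paired analysis was possible because each group has 1 array. Signals near the floor (Junb, Egr2 and heart Myc) limit what can be said of those genes.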
